A study of Mus musculus with 33 samples.

Results

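Sox5, Sox6 and Sox13 make up the SoxD subfamily of SOX transcription factors, and Sox8, Sox9 and Sox10 make up the SoxE subfamily. These 6 genes were taken by symbol from the 55401 genes counted in 33 RNA sequencing libraries of mouse embryos. All 6 passed the filter on low counts and were among the 20073 genes tested. The libraries came from tissue labelled as frontal bone of the calvaria, the bone plate over the front of the brain, at 11 stages, 9 of them evenly spaced from embryonic day 8.5 (E8.5) to E12.5 and the others E13.5 and E14.5. Each stage had 3 libraries, called a, b and c after their column names. All stages shared 1 tissue label, and the stage was the variable compared. The labels name no strain, genotype or treatment, and they do not say whether a library held 1 embryo or a pool. The p-values therefore measure the spread between these libraries, which may be partly technical.

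SOX proteins bind DNA through a high mobility group (HMG) box. SoxE proteins carry a transactivation domain: Sox9 drives cartilage formation, Sox10 acts in neural crest cells and in the glia and melanocytes that come from them, and Sox8 overlaps with both in many tissues. SoxD proteins have no transactivation or repression domain of their own and dimerize through a coiled coil. Sox5 and Sox6 are known as partners of Sox9 on cartilage genes such as Col2a1 and Acan, and both also act in neural progenitors and neurons. Sox6 further represses embryonic globin genes in red cell precursors and slow fibre genes in muscle, and Sox13 is known from the embryonic nervous system, arteries and T lymphocytes. The frontal bone itself forms from cranial neural crest without a cartilage template, next to cartilage of the skull base, skin, brain, vessels and nerves.

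Library totals ran from 14516518 to 19964404 reads with a median of 17081223, and the members' counts per library were between 54 and 2667. The tissue label was checked against bone markers. Ibsp, which encodes bone sialoprotein, was at 0.278 CPM at E8.5 (counts scaled to library size, the unit of all levels here), had no count at E9 and E9.5, and reached 15.1 CPM at E11.5 and 464 CPM at E14.5. Libraries before E11.5 therefore lacked this defining marker of bone or held it near 0, while the 12 listed genes of neural progenitors and radial glia summed to 1135 to 1176 CPM at E8.5 and 2000 to 2143 CPM at E12.5. Ibsp did not rise steadily, since it was at 0.204 CPM at E12.5, while Runx2, a regulator of bone formation, was at 12.6 ± 1.9 CPM at E11.5, 15.4 ± 0.67 CPM at E12.5 and 45.1 ± 3.1 CPM at E14.5. Libraries of E12 and E13.5 stood apart from the rest in the likeness of replicates, with a lowest correlation within the stage of 0.965 and 0.975 against at least 0.988 at the other stages. The share of reads in 86 ribosomal protein genes was 8.32%, 6.16% and 4.09% in E12 a, b and c, and 3.50%, 3.50% and 5.79% in E13.5 a, b and c. Genes as long as Sox5 and Sox6 were shifted in the same libraries, by -0.79, -0.73 and -0.28 (log2) in E12 a, b and c and by 0.15, 0.14 and -0.50 in E13.5 a, b and c, relative to the mean of all libraries. Those values are given beside the Sox5 and Sox6 results they touch.

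The promoters of the SoxD genes are shown beside their courses over the stages. Pearson's r over the 11 stage means of log2 CPM was 0.709 between Sox5 and Sox6. With Sox13 it was -0.27 for Sox5 and -0.55 for Sox6. Sox5 and Sox6 were alike only in part, since from E12.5 to E13.5 Sox5 rose (0.58, log2) and Sox6 fell (-0.93). Stretches before the transcription start come from RefSeq (GRCm38.p6), which had entries for 4 of the 6 genes (Sox5, Sox6, Sox13 and Sox8), and bases inside annotated exons were left out. Each is written 5' to 3' on the minus strand, with capitals for ACAATG or ACAAAG, 2 forms of the core that HMG boxes of the SOX family bind. For Sox5 this is chr6:143947107-143947356, inside the span of the gene but outside its annotated exons. It precedes an internal start, downstream of the 5' end of the gene at 144781977. The stretch before that 5' end is not shown. For Sox6 it is the stretch before the farthest upstream of 6 listed starts, chr7:116038797-116038994. For Sox13 it is chr1:133424378-133424462.
Sox5: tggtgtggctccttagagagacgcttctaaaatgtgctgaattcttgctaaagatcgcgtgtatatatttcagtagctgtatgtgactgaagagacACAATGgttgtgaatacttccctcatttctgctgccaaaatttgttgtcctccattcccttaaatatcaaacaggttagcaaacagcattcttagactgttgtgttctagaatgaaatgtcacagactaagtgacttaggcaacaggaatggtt
Sox6: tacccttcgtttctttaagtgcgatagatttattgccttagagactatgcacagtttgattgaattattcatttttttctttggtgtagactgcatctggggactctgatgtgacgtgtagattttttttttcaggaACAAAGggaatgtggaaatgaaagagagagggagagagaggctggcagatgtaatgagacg
Sox13: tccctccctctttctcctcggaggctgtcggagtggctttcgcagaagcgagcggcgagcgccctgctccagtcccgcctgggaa
Both strands were searched over the whole 250 bases before each start. The Sox5 window held 1 match, ACAATG, and had 39.6% G and C. The Sox6 window shown also held 1 match, ACAAAG, at 45.2% G and C, and the Sox13 window held none at 72.4%. The other 5 Sox6 windows held 1, 4, 1, 3 and 0 matches from the farthest upstream to the farthest downstream. Of 32851 promoter windows of the same length, 25.2% held at least 1 of the 2 motifs and 4.1% held 2 or more, and their median G and C content was 52.4%. Of the 6 Sox6 windows, 2 held 2 or more. A match of these letters is a description and not a binding site.

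All 6 genes changed over the 11 stages, in a test that called 95.3% of all genes tested. The adjusted p ran from 7.53e-21 for Sox10 to 2.52e-09 for Sox8. The span between the highest and the lowest stage mean was 17.3-fold for Sox10, 7.18-fold for Sox13, 4.74-fold for Sox6, 4.53-fold for Sox5, 3.83-fold for Sox9 and 2.78-fold for Sox8. In bulk tissue, a lower level can mean fewer cells of a type or less RNA per cell, and these cannot be told apart here.

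**Figure D1:**
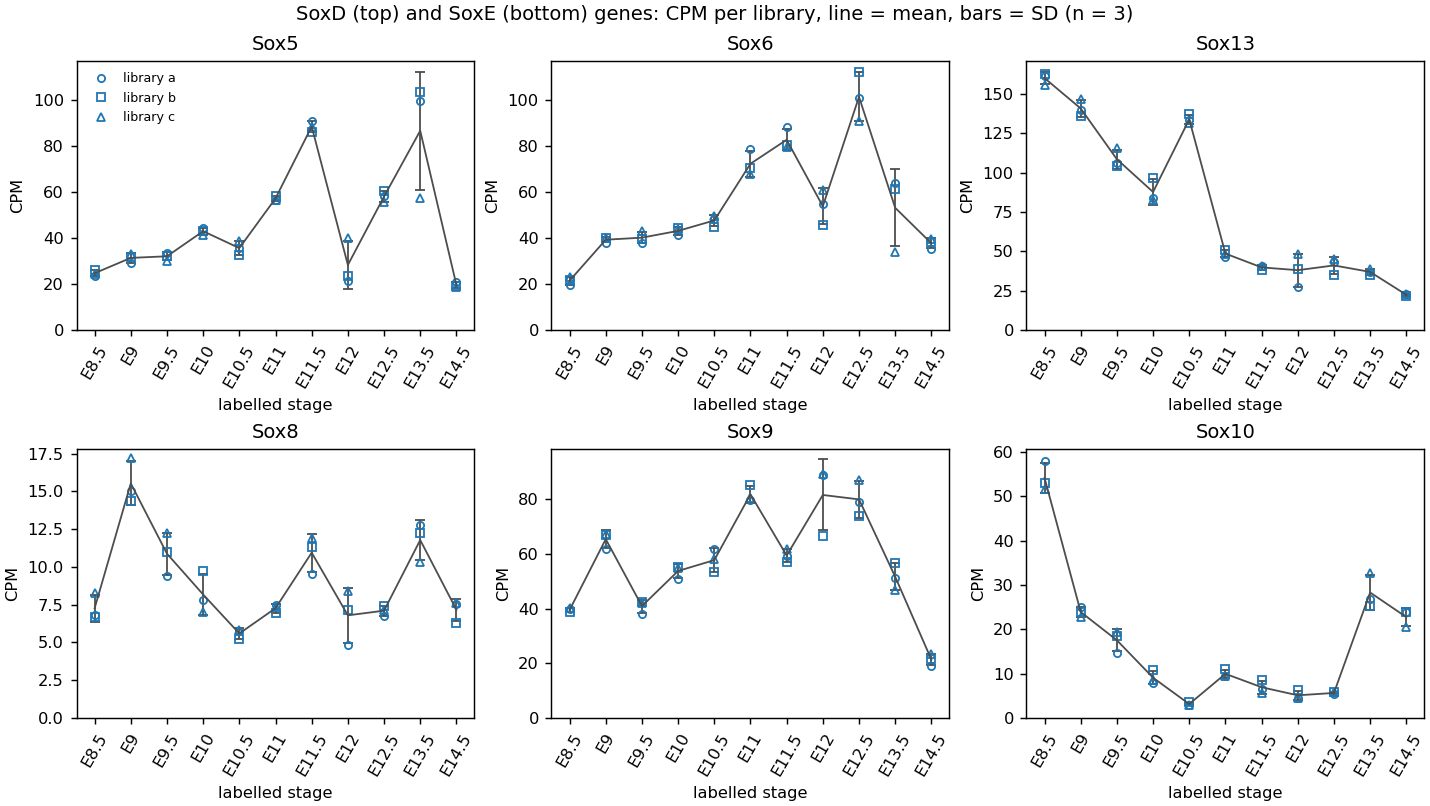
CPM (vertical axis) of the 6 genes by labelled stage (horizontal axis), 1 panel a gene, with a symbol for each of the 3 libraries, a line through the stage means and bars for the SD. Sox10 is at 54.1 CPM at E8.5, 3.13 CPM at E10.5 and 28.3 CPM at E13.5, Sox13 is highest at E8.5 and lowest at E14.5, and library c lies apart in Sox5 at E12 and E13.5 and in Sox6 at E13.5.

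Sox10, the SoxE factor of crest cells and glia, was high at both ends of the series and low in the middle. Its level was 57.9, 52.9 and 51.6 CPM in the 3 libraries of E8.5 and 3.03, 3.50 and 2.88 CPM at E10.5. The stage means between were 23.9 ± 1.1 (SD, n = 3) at E9, 17.5 ± 2.4 at E9.5 and 9.07 ± 1.5 CPM at E10, so that each stage up to E10.5 lay below the one before it, with no overlap of libraries. By E10.5 Sox10 had fallen by 4.11 ± 0.16 (standard error) on the log2 scale relative to E8.5 (adjusted p = 6.88e-19). It rose again by 1.66 ± 0.16 (log2) from E10.5 to E11 (adjusted p = 2.13e-09), to 9.40, 10.9 and 9.53 CPM. From E11 to E12.5 the libraries lay between 4.50 and 10.9 CPM. At E13.5 the level was 26.7, 25.3 and 32.8 CPM, against 5.33, 5.76 and 5.81 CPM at E12.5, a rise of 2.32 ± 0.15 (log2, adjusted p = 1.50e-13). The E14.5 libraries, at 23.9, 23.8 and 20.5 CPM, remained above all libraries from E9.5 to E12.5.

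Ordered by stage mean, Sox10 ran E8.5, E13.5, E9, E14.5, E9.5, E11, E10, E11.5, E12.5, E12 and E10.5. Libraries of E9 and E14.5 overlapped in that order, as did those of each pair of neighbours from E11 down to E12, and the remaining neighbours did not. Relative to E8.5, Sox10 at E14.5 was lower by 1.25 ± 0.13 (log2, adjusted p = 9.73e-10), and by a smaller 0.82 when libraries were scaled by their totals alone. Some of its smaller steps rested on single libraries. The fall from E9 to E9.5 (-0.45) missed the threshold without E9 a, at -0.42, and without E9.5 a, at -0.34. The step from E11 to E11.5 (-0.52) missed it without E11 b, E11.5 a or E11.5 c, with values down to -0.40. The step from E11.5 to E12 (-0.45) was -0.26 without E11.5 b, and the step from E13.5 to E14.5 (-0.31, adjusted p = 0.0484) was -0.20 without E13.5 c and also missed the threshold without any 1 of the 3 E14.5 libraries.

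Genes of neural crest and glia were set beside Sox10. Foxd3, a transcription factor of premigratory crest and of Schwann cell precursors, was at 7.43 ± 0.33 CPM at E8.5, 0.556 ± 0.27 CPM at E10.5, 0.820 ± 0.43 CPM at E12.5 and 5.20 ± 2.0 CPM at E13.5. Erbb3, the neuregulin receptor of crest and Schwann cells, was at 29.1 ± 0.78 CPM at E8.5, 5.20 ± 0.72 CPM at E10.5 and 45.7 ± 13 CPM at E13.5, with E12.5 libraries between 11.6 and 13.3 CPM. Both were low where Sox10 was low. Over the 11 stage means of log2 CPM, Pearson's r with Sox10 was 0.976 for Foxd3 and 0.899 for Erbb3. The points share the same libraries, and these values are descriptions.

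From E8.5 to E10.5, 7 of 12 listed neural crest genes fell, 2 rose and 3 did not pass (49.5% of all genes called). Their median was -0.51 (log2), where the median of all genes was 0.092. Foxd3 and Tfap2a, an early crest regulator, were among those that fell, Tfap2a by 2.51, while Zic1 (1.16) and Msx1 (0.33) rose. Of 15 Schwann cell lineage genes, 8 fell, 2 rose and 5 did not pass, with a median of -0.71. The largest falls besides Foxd3 were Egr2 (-4.73), a myelination regulator also known from the hindbrain, Cdh19 (-2.72), a cadherin of Schwann cell precursors, and Gfra3 (-2.49), a receptor subunit for artemin, while Ngfr (0.44) and Pmp22 (0.39) rose. Over the same window all 10 neuronal genes and 6 of 7 genes of oligodendrocyte precursors, a central glial type that also uses Sox10, rose, among them Olig1 (4.56) and Cspg4 (2.57). Whether that glial type was present at these stages was not tested. The 9 melanocyte genes tested did not follow Sox10: 5 rose, 1 fell and 3 did not pass. Tyr, which encodes tyrosinase, had no count at E8.5 and was at least 18.0-fold higher at E10.5, against a floor of 3 counts over the 3 libraries. Dct rose by 6.81, Pmel by 3.15 and Tyrp1 by 3.04, and Kit (-0.68), a growth factor receptor, fell. Pigment genes are also expressed in the retinal pigment epithelium. The crest list did not follow Sox10 in each single step. From E8.5 to E9, when Sox10 fell (-1.18), 5 crest genes rose, 1 fell and 6 did not pass (20.2% of all genes called). From E11.5 to E12, when Sox10 fell (-0.45), 10 rose, 0 fell and 2 did not pass (68.8%). From E12.5 to E13.5, when Sox10 rose (2.32), 6 rose, 2 fell and 4 did not pass (53.1%). The Schwann cell list followed Sox10 in some steps and not in others. From E8.5 to E9, 0 of its 15 genes rose, 6 fell and 9 did not pass. From E9 to E9.5 (Sox10 -0.45), 2 rose, 1 fell and 12 did not pass (22.8%). From E9.5 to E10 (-0.95), 1 rose, 5 fell and 9 did not pass (26.7%). From E10 to E10.5 (-1.53), 1 rose, 1 fell and 13 did not pass (8.46%). From E13.5 to E14.5 (-0.31), 4 rose, 5 fell and 6 did not pass (50.9%). The part of other cell types in these values was not tested.

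From E12.5 to E13.5, when Sox10 rose, 14 of 15 Schwann cell lineage genes rose and none fell (53.1% of all genes called). Their median was 1.88, beside 0.010 over all genes. Among those that rose most were Gfra3 (3.57), S100b (3.23), a calcium-binding protein of glia, and Mal (2.68), a myelin protein, and Egr2 (1.42) did not pass. The summed level of the list was 105.6 to 114.9 CPM at E12.5 and 290.6 to 296.3 CPM at E13.5, with no overlap and no member at 0. Of 9 melanocyte genes, 5 rose and none fell: Mlana (2.70), Slc45a2 (2.15), Tyr (1.49), Pmel (1.32) and Kit. Mitf, the melanocyte regulator that Sox10 is known to activate, had a value of 0.33 that did not pass. Lists of other tissues moved in the same step, and their part in the Sox10 value was not tested. The 8 epidermal genes, all of which rose, summed to 77.3 to 87.0 CPM at E12.5 and 1049 to 1313 CPM at E13.5, and the 12 osteoblast genes, of which 9 rose, to 599.9 to 689.6 CPM and 3105 to 3127 CPM.

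**Figure D2:**
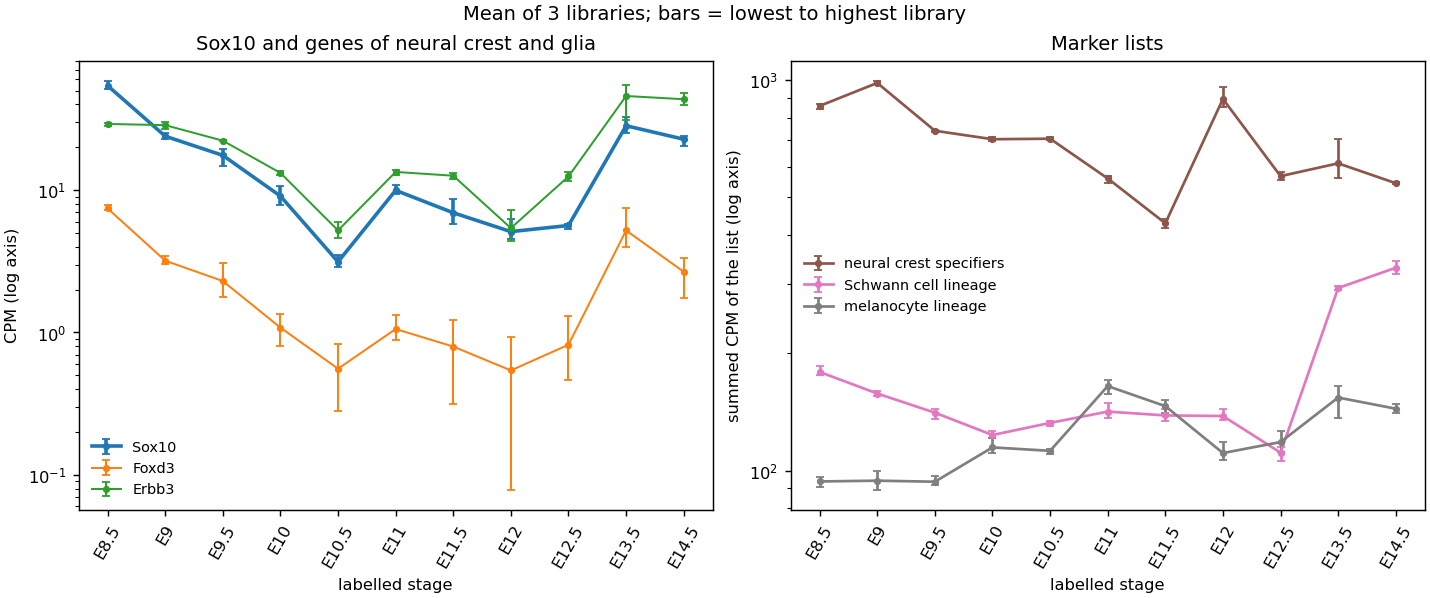
Left, CPM on a log axis by labelled stage for Sox10, Foxd3 and Erbb3; right, the summed CPM of 3 marker lists on a log axis (neural crest specifiers, Schwann cell lineage, melanocyte lineage). Points are means of 3 libraries and bars run from the lowest to the highest library; Foxd3 and Erbb3 are low where Sox10 is at 3.13 CPM, and the Schwann cell list stands at 290.6 to 296.3 CPM at E13.5.

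Sox9, the cartilage factor that is also found in neural stem cells and crest, was highest at E11, E12 and E12.5 and lowest at E14.5. Its libraries read 39.7, 38.6 and 40.2 CPM at E8.5, 61.8, 67.1 and 67.5 CPM at E9, and 38.2, 42.5 and 42.2 CPM at E9.5. Sox9 thus stood clear at E9, a rise of 0.73 ± 0.10 (log2, adjusted p = 3.17e-06) followed by a fall of 0.68 ± 0.10 (adjusted p = 5.64e-06). The stage means climbed to 53.8 ± 2.5 CPM at E10, 57.8 ± 4.3 CPM at E10.5 and 81.9 ± 3.1 CPM at E11. The libraries of E11, E12 and E12.5 overlapped, between 66.6 and 89.3 CPM, and those of E11.5 lay below them at 59.5, 57.1 and 61.9 CPM. At E13.5 Sox9 was at 51.3, 56.9 and 47.0 CPM and at E14.5 at 19.2, 21.7 and 23.2 CPM, below every library of every other stage. The E14.5 level was 0.267 times that of E12.5 (adjusted p = 6.76e-16). Scaled by library totals alone, the step from E11.5 to E12 (0.46) was 0.081 and missed the threshold.

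Cartilage matrix genes did not follow Sox9 in every window. From E8.5 to E10.5 (Sox9 0.55), 4 of 17 listed genes rose, 4 fell and 9 did not pass (49.5% of all genes called). From E10.5 to E12.5 (Sox9 0.47), 10 rose, 4 fell and 3 did not pass (35.9%). Their median was 0.89, beside 0.026 over all genes. From E12.5 to E14.5 (Sox9 -1.90), 16 of 17 rose and 1 fell (53.8%). The median there was 2.35, where the median of all genes was -0.029. Snorc, a cartilage proteoglycan gene, had no count at E12.5 and was at least 34.7-fold higher at E14.5, against the same floor. Matn1, which encodes a matrilin, rose by 6.91 (log2) from 0.625 ± 0.28 to 75.0 ± 7.7 CPM, Acan, which encodes aggrecan and is a Sox9 target, by 4.19 from 1.42 ± 0.099 to 26.1 ± 1.4 CPM, and Matn4 by 3.36. Col2a1, which encodes type II collagen and is the best known Sox9 target, was the member that fell, by 0.38, from 347 ± 25 to 266 ± 15 CPM. Col2a1 was already at 433 ± 13 CPM at E8.5, when Acan was at 0.763 ± 0.32 CPM. Over the 11 stage means, r with Sox9 was -0.080 for Col2a1 and -0.49 for Acan. With Sox13, r was 0.855 for Col2a1 and -0.72 for Acan. From E12.5 to E14.5, 11 of 12 neural progenitor genes fell and none rose, with the largest falls in Hes5 (-4.37), Nr2e1 (-4.34), Pax6 (-3.70) and Sox2 (-3.22). In the same window 10 of 12 osteoblast genes rose. The summed neural progenitor list was 2000 to 2143 CPM at E12.5 and 516.7 to 538.9 CPM at E14.5. The part of neural tissue in the Sox9 value was not tested.

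Sox8 was counted at 62 to 255 reads a library, and its span over the stages was the smallest of the 6 genes. Levels were 6.81, 6.67 and 8.30 CPM at E8.5 and 15.0, 14.4 and 17.2 CPM at E9, a rise of 1.09 ± 0.15 (log2, adjusted p = 6.16e-06). E9 was the only stage clear of its neighbour in the order of stage means: the other 9 neighbouring pairs overlapped. Sox8 then stood at 10.9 ± 1.4 CPM at E9.5, 8.17 ± 1.4 CPM at E10 and 5.77, 5.20 and 5.80 CPM at E10.5. Higher levels were seen again at E11.5, with 9.55, 11.3 and 11.9 CPM, and at E13.5, with 12.8, 12.2 and 10.3 CPM, against 6.77, 7.43 and 7.12 CPM at E12.5. The rise from E12.5 to E13.5 was 0.73 ± 0.15 (adjusted p = 2.07e-04), and the fall from E13.5 to E14.5 was 0.72 ± 0.15 (adjusted p = 2.39e-04). Between E8.5 and E14.5 the difference was -0.022, with a 95% interval from -0.35 to 0.31, and it did not pass (adjusted p = 0.906). With scaling by library totals alone that difference was 0.41 and passed (adjusted p = 0.0405). The 3 falls between E9 and E10.5 each lost significance when single libraries were left out. The fall from E9 to E9.5 (-0.51) was -0.44 without E9 c and -0.42 without E9.5 a. For E9.5 to E10 (-0.41) this held for E9.5 b, E9.5 c, E10 a and E10 c, with values down to -0.31, and for E10 to E10.5 (-0.55) for each library except E10 c, down to -0.40. Exons of Sox8 share 329 bases with 2810468N07Rik on the opposite strand, and without a stated strand setting those reads cannot be assigned.

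Counted per kilobase of exon, the make-up of the SoxE subfamily turned over and back. At E8.5 Sox10 made up 59.8% ± 2.0 (SD, n = 3) of the summed SoxE level and Sox9 32.3% ± 0.98. By E10.5 the shares were 6.15% ± 0.99 and 83.2% ± 0.99, and at E12.5 they were 7.89% ± 0.57 and 82.4% ± 1.5. Sox10 was at 36.3% ± 5.3 at E13.5 and 49.9% ± 3.9 at E14.5, when Sox9 was at 34.7% ± 3.4. The Sox9 level was thus 0.54 of the Sox10 level at E8.5, 13.8 times it at E10.5, 1.38 times it at E13.5 and 0.70 of it at E14.5. Sox8 held between 7.87% and 18.2% of the sum at every stage. At E8.5 the summed SoxE level was 29.6 ± 1.0 CPM per kilobase, and the levels of E12.5 and E14.5 were 23.5 ± 1.6 and 14.9 ± 0.14. Sox9 and Sox10 had an r of -0.56 over the 11 stage means.

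**Figure D3:**
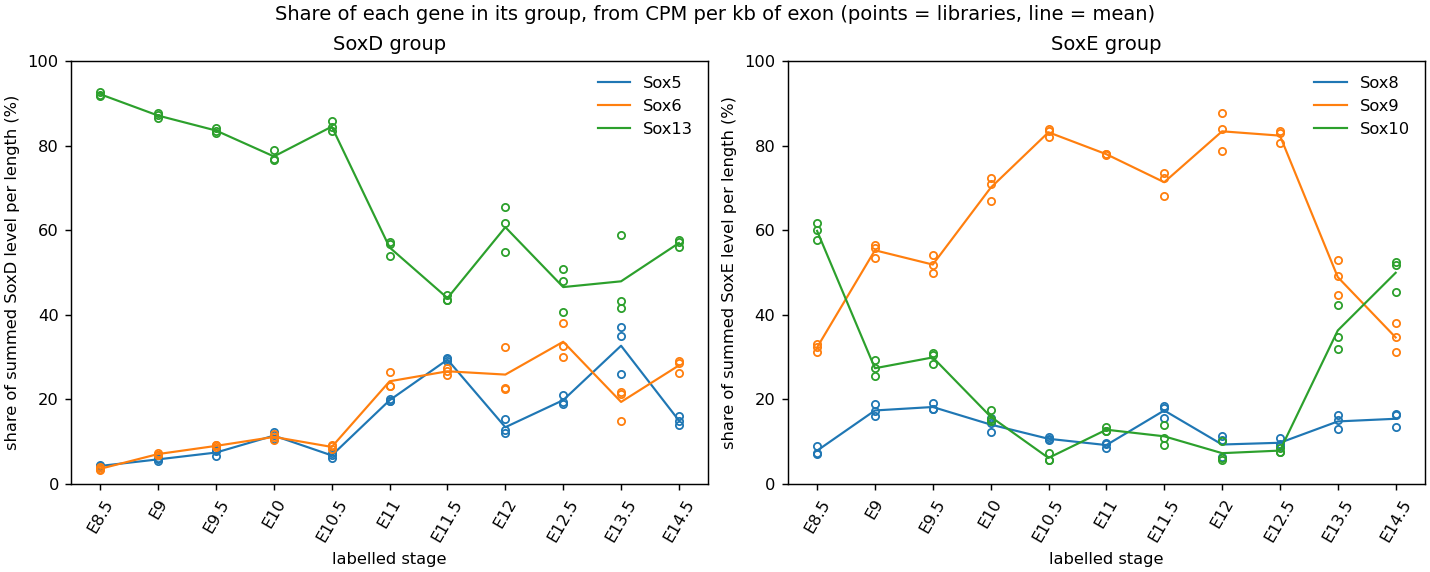
Share in percent (vertical axis) of each gene in the summed level per kilobase of exon of its subfamily by labelled stage (horizontal axis), SoxD left and SoxE right, with a point for each library and a line through the means. The Sox10 share of the SoxE level is 59.8% at the first stage, lowest at E10.5 (6.15%) and 49.9% at the last stage, and Sox13 holds 92.2% of the SoxD level at E8.5 and 44.0% at E11.5.

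Sox13, the third SoxD gene, fell through the series, with a break between E10.5 and E11. Its libraries read 162, 163 and 156 CPM at E8.5, 140, 136 and 147 CPM at E9, 106, 104 and 115 CPM at E9.5, and 83.8, 96.9 and 82.4 CPM at E10. At E10.5 the level was higher again, at 133, 137 and 131 CPM, a rise of 0.61 ± 0.11 (log2, adjusted p = 6.29e-04) in a step in which 8.46% of all genes were called. It then fell by 1.46 ± 0.12 (adjusted p = 3.49e-11) to 46.5, 50.9 and 48.2 CPM at E11, below all earlier libraries. From E11.5 to E13.5 the libraries overlapped, between 27.2 and 48.1 CPM, and at E14.5 they read 22.6, 21.5 and 22.9 CPM, below every library of every other stage. Relative to E8.5, Sox13 at E14.5 had fallen by 2.84 ± 0.12 (adjusted p = 1.63e-18). Its smaller falls rested on single libraries: E9 to E9.5 (-0.38) missed the threshold without E9 c, E9.5 a or E9.5 b, at -0.35 to -0.36, and E9.5 to E10 (-0.31) missed it without any 1 library except E10 b, at values down to -0.26.

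Sox6 was highest at E12.5 as scaled, with a lower level at E12 and a fall after E12.5. Its libraries read 19.5, 21.7 and 23.1 CPM at E8.5 and 38.0, 40.0 and 39.8 CPM at E9, a rise of 0.87 ± 0.15 (log2, adjusted p = 7.16e-05). Stage means then were 40.2 ± 2.5 CPM at E9.5, 43.2 ± 1.6 CPM at E10 and 47.7 ± 2.5 CPM at E10.5. Sox6 rose by 0.60 ± 0.14 (adjusted p = 9.66e-04) to 78.8, 70.6 and 67.8 CPM at E11, and E11.5 followed at 88.2, 80.5 and 79.9 CPM. At E12 the libraries read 54.9, 45.7 and 61.1 CPM. As scaled, the highest libraries were those of E12.5, at 101, 113 and 91.2 CPM, above every library of every other stage. With each library's trend over gene length removed, the means of E12 and E12.5 were 6.35 and 6.43 (log2 CPM). E12 a, at 6.58, was then the highest library. At E14.5 Sox6 was at 35.3, 38.4 and 39.5 CPM, lower than E12.5 by 1.43 ± 0.14 (adjusted p = 6.85e-10) and still higher than E8.5 by 0.81 ± 0.15 (adjusted p = 1.26e-05).

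Sox5 had 2 high stages, E11.5 and E13.5, with lower values between and after them. Libraries read 23.6, 26.3 and 24.1 CPM at E8.5, and the stage means were 31.4 ± 2.1 CPM at E9, 32.1 ± 1.7 CPM at E9.5, 43.0 ± 1.6 CPM at E10 and 35.6 ± 3.0 CPM at E10.5. Sox5 rose by 0.68 ± 0.16 (log2, adjusted p = 0.00124) to 56.7, 58.4 and 56.7 CPM at E11 and by 0.63 ± 0.16 (adjusted p = 0.004) to 90.9, 86.4 and 88.5 CPM at E11.5. It stood at 58.2, 60.3 and 55.7 CPM at E12.5. At E14.5, with 20.9, 19.2 and 18.7 CPM, Sox5 lay below every library of every other stage, lower than E12.5 by 1.57 ± 0.17 (adjusted p = 3.31e-09). From E8.5 to E14.5 the difference was -0.33, with a 95% interval from -0.69 to 0.019, and did not pass (adjusted p = 0.0772). Exons of Sox5 share 1330 bases with Sox5os1 on the opposite strand.

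Libraries differed with the shift of long genes described above for Sox5 at E12 and for Sox5 and Sox6 at E13.5. Sox5 was at 21.2, 23.5 and 40.1 CPM in E12 a, b and c and at 99.6, 103 and 57.2 CPM in E13.5 a, b and c, and Sox6 at 64.2, 61.5 and 34.0 CPM in the latter. The low libraries were those in which long genes were low and the ribosomal protein share was high. Removing each library's trend over gene length narrowed the spread of Sox5 from 0.92 to 0.41 (log2) at E12 and from 0.85 to 0.22 at E13.5, and that of Sox6 at E13.5 from 0.92 to 0.25. Sox6 at E12 was different. Its libraries a, b and c read 54.9, 45.7 and 61.1 CPM, and their spread went only from 0.42 to 0.37. The fall of Sox5 from E11.5 to E12 was 1.64 ± 0.17 (adjusted p = 1.54e-09), was -0.76 with the trend removed and -1.18 without E12 a, E12 b and E13.5 c, and passed each time. Its rise from E12 to E12.5 (1.03) was 0.25 with the trend removed and 0.54 without those libraries. The rise of Sox5 from E12.5 to E13.5 was 0.58 ± 0.16 (adjusted p = 0.00316), 0.83 with the trend removed and 0.85 without those libraries.

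The direction of Sox6 between E11.5 and E12 depended on this step. It fell by 0.62 ± 0.14 (log2, adjusted p = 2.86e-04), and with the length trend removed it was higher by 0.33 (adjusted p = 0.00127). Its rise from E12 to E12.5, 0.91 ± 0.14 (adjusted p = 2.34e-06), became 0.075 and did not pass (adjusted p = 0.462). Sox6 from E12.5 to E13.5 fell by 0.93 ± 0.14 (adjusted p = 2.13e-06), and by 0.67 with the trend removed. From E13.5 to E14.5 its fall (-0.50) was -0.35 and missed the threshold without E13.5 a. Early values moved too, since genes of this length were at -0.29 (log2) on average at E8.5. The rise of Sox6 from E8.5 to E10.5 went from 1.15 to 0.75 with the trend removed and that from E8.5 to E14.5 from 0.81 to 0.41, both still past the threshold. For Sox5 the rise from E8.5 to E10.5 (0.53, adjusted p = 0.00964) became 0.13 and did not pass (adjusted p = 0.182), and it was 0.47 (adjusted p = 0.0615) without E8.5 a. The trend takes in every gene of that length, so whether it is technical or biological was not tested.

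**Figure D4:**
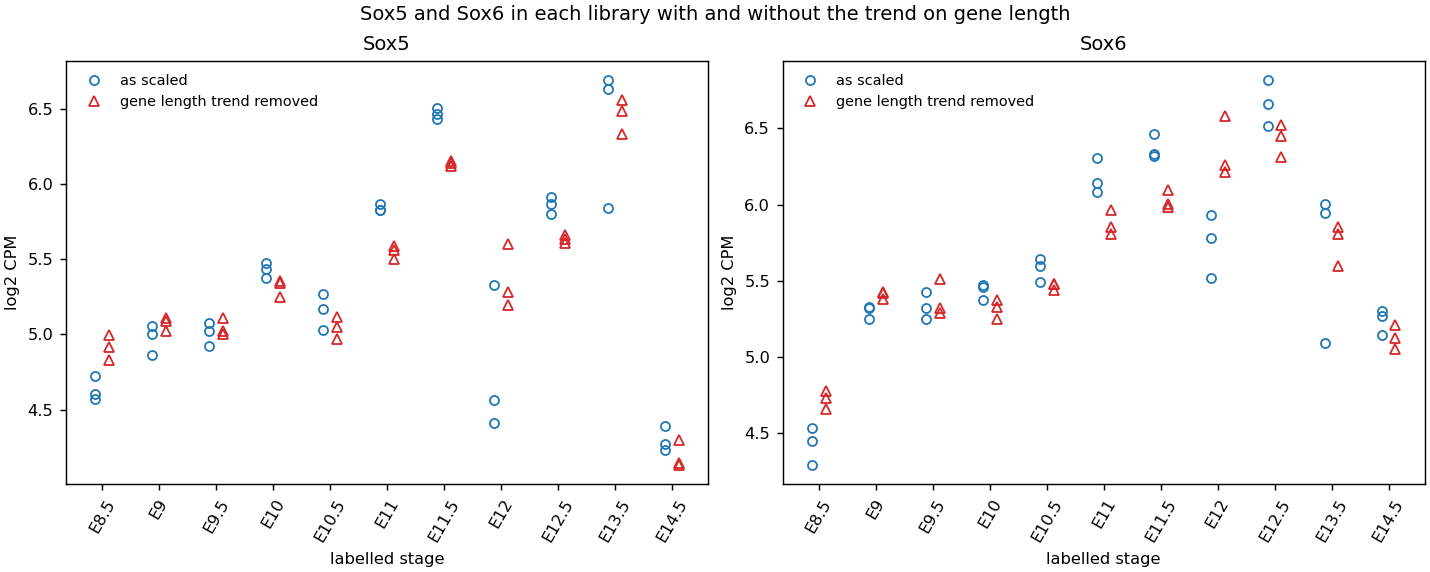
Log2 CPM (vertical axis) of Sox5 and Sox6 in each library by labelled stage (horizontal axis), as scaled (circles) and after the trend of each library over gene length was removed (triangles). The spread of the Sox5 libraries at E13.5 narrows from 0.85 to 0.22 and that of Sox6 from 0.92 to 0.25, and Sox6 at E12 lies below E11.5 as scaled and above it after removal.

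Per kilobase of exon, Sox13 held most of the SoxD level at first. From E11 on it held about as much as Sox5 and Sox6 together, with mean shares of 44.0% to 60.7%. The shares depend on the exonic lengths used as divisors, 14376 bases for Sox5, 14832 for Sox6 and 4312 for Sox13. In CPM at E12.5, Sox13 was at 41.0 ± 5.3, below Sox5 at 58.1 ± 2.3 and Sox6 at 102 ± 11. The shift of long genes was not removed from the shares. It was -0.29 at E8.5, 0.34 at E11.5 and -0.60 at E12 (log2, stage means). The share of Sox13 was 92.2% ± 0.48 at E8.5, 84.5% ± 1.1 at E10.5, 55.9% ± 1.8 at E11, 44.0% ± 0.70 at E11.5 and 57.0% ± 0.94 at E14.5. The summed SoxD level was 40.3 ± 0.84 CPM per kilobase at E8.5, 36.7 ± 0.30 at E10.5, 20.1 ± 0.47 at E11 and 9.08 ± 0.18 at E14.5. Between the other two, the Sox6 level was 0.844 ± 0.072 of the Sox5 level at E8.5, 1.69 ± 0.11 times it at E12.5, 0.592 ± 0.028 of it at E13.5 and 1.88 ± 0.21 times it at E14.5. The 3 libraries of E13.5 thus had nearly the same ratio although both genes were low in library c. Over the 11 stage means of log2 CPM, r was 0.709 between Sox5 and Sox6 and 0.827 over the 8 stages other than E11.5, E12 and E13.5. With Sox13 it was -0.27 for Sox5 and -0.55 for Sox6.

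The targets that Sox6 is known to repress were counted over E12.5 to E14.5, when Sox6 fell. In that window 53.8% of all genes were called, and the median of all genes was -0.029 (log2). All 5 slow muscle fibre genes tested rose, with a median of 2.99 (log2), among them Tnni1 (3.61), Tnnc1 (3.45), Myh7 (2.99) and Tnnt1 (2.65), which encode troponins and a myosin of slow fibres. All 7 fast and embryonic fibre genes also rose, with a median of 3.88. The 3 embryonic globin genes fell, Hbb-bh1 by 4.44, Hba-x by 2.66 and Hbb-y by 1.49. Their summed level was 3274 to 3733 CPM at E12.5 and 1037 to 1226 CPM at E14.5, while of the 4 definitive globin genes 2 rose and none fell. Hbb-y and Sox6 had an r of 0.39 over the 11 stage means, and Hbb-bh1 and Sox6 one of -0.28. At E12 the globin values differed most between libraries, with 9553 to 24985 CPM for the embryonic list.

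Counts of members that passed in the 4 windows are read against the share of all genes called. From E8.5 to E10.5, 4 of 6 passed where 49.5% of all genes were called: Sox5, Sox6 and Sox9 rose and Sox10 fell. Sox13 (-0.26, adjusted p = 0.0597) and Sox8 (-0.38, adjusted p = 0.0511) just missed the threshold there, and Sox8 passed without E8.5 a. From E10.5 to E12.5, 5 of 6 passed where 35.9% of all genes were called. Sox5 (0.71), Sox6 (1.09), Sox9 (0.47) and Sox10 (0.85) rose, Sox13 fell by 1.71, and Sox8 (0.35) did not pass. From E12.5 to E14.5, 5 of 6 passed against 53.8% of all genes, with Sox10 the only member that rose, by 2.01 ± 0.15 (adjusted p = 1.29e-12), and Sox5, Sox6, Sox9 and Sox13 (-0.88) lower. From E8.5 to E14.5, 4 of 6 passed against 74.6% of all genes: Sox6 was higher, and Sox9 (-0.89), Sox10 and Sox13 were lower. With the length trend removed Sox5 passed this window too, at -0.72. The windows share stages, so their values are not independent of one another.

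Among the 10 steps between neighbouring stages, Sox10 passed 9, Sox8 and Sox9 passed 8 each, Sox5 and Sox6 passed 6 each and Sox13 passed 5. The count of members that passed was 4 of 6 from E9 to E9.5 (22.8% of all genes called), 4 from E9.5 to E10 (26.7%), 3 from E10 to E10.5 (8.46%), 5 from E10.5 to E11 (36.5%), 4 from E11 to E11.5 (23%), 5 from E11.5 to E12 (68.8%) and 2 from E12 to E12.5 (63%). In the step from E8.5 to E9, 4 of 6 passed where 20.2% of all genes were called: Sox6, Sox8 and Sox9 rose and Sox10 fell by 1.18 ± 0.13 (adjusted p = 1.50e-07). From E12.5 to E13.5, 5 of 6 passed against 53.1% of all genes, Sox5, Sox8 and Sox10 higher and Sox6 and Sox9 lower. From E13.5 to E14.5 all 6 were lower, where 50.9% of all genes were called and 26.9% were called lower. Sox5 fell most, by 2.15 ± 0.17 (adjusted p = 1.04e-11), then Sox9 by 1.27 ± 0.10 (adjusted p = 1.05e-11). The calls of Sox10 and Sox6 in this step were the ones lost above when single libraries were left out, and both were also lost with scaling by totals alone, at -0.16 and -0.36.

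**Figure D5:**
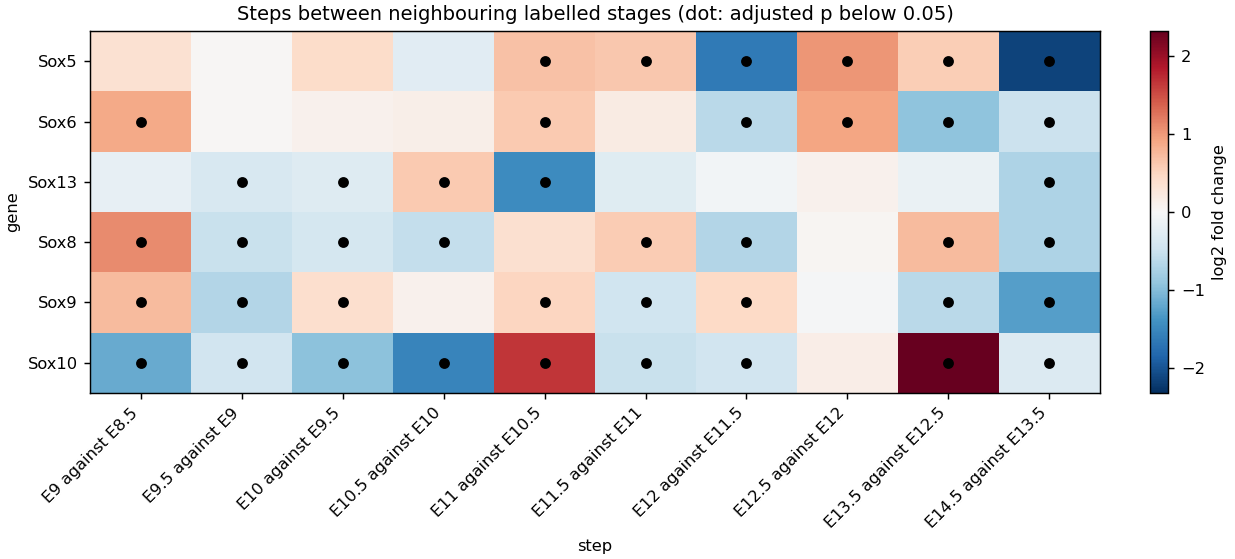
Log2 fold change of each gene (rows) in the 10 steps between neighbouring labelled stages (columns), red for higher and blue for lower, with a dot where the adjusted p was below 0.05. In the last column all 6 genes are lower, from -2.15 for Sox5 to -0.31 for Sox10, and the darkest red is the rise of Sox10 from E12.5 to E13.5, 2.32.

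The other SOX genes give the context within the family. Of 12 tested from a list of 13, 7 fell, 2 rose and 3 did not pass from E12.5 to E14.5 (53.8% of all genes called). Their median was -1.13, beside -0.029 over all genes. The largest falls were those of the neural SoxB genes, Sox3 (-6.07), Sox1 (-5.77), Sox21 (-3.31) and Sox2 (-3.22), and the 2 that rose were Sox18 (0.76) and Sox7 (0.54), SoxF genes of blood vessels. Sox2 was at 133 ± 1.4 CPM at E12.5 and 14.3 ± 2.6 CPM at E14.5. Per kilobase of exon, Sox2 (65.9 ± 1.1), Sox11 (41.1 ± 1.3) and Sox3 (38.9 ± 2.4) were at E8.5 above Sox13 (37.1 ± 0.86), the highest of the 6 members at that stage. At E14.5, Sox4 (24.6 ± 1.6), Sox12 (16.4 ± 1.2), Sox11 (13.6 ± 0.72) and Sox18 (7.86 ± 0.14) were above Sox10 (7.45 ± 0.64), which was then the highest member. Sox3 lay above Sox13, and Sox18 above Sox10, by less than the larger SD of each pair.

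The genes most like each member were ranked by r over the 11 stage means of log2 CPM, among 12910 genes. Foxd3 led for Sox10, followed by Arhgef16 (0.922) and the heat shock gene Hspa1b (0.915). For Sox13 the closest were Cdh20 (0.979), a cadherin, and Pak2 (0.976), a kinase. For Sox5 they were Zbtb18 (0.976), a zinc finger repressor, Ntng2 (0.966), a netrin-G, and Plxna2 (0.952), a semaphorin receptor. Sox6 was closest to Pcdh19 (0.97), a protocadherin, Prdm16 (0.958), a transcriptional regulator, and St6gal2 (0.942), a sialyltransferase. Sox9 was closest to Fsd1 (0.953) and Csnk1e (0.95), a casein kinase. Sox8 had no close companion: its highest values were 0.779 for Klf15, 0.761 for Espn and 0.745 for Uvrag. The 11 points come from the same libraries throughout, and these values carry no test.

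The 6 genes lie on 6 chromosomes (GRCm38). Sox5 (ENSMUSG00000041540) spans chr6:143828425-144781977 and Sox6 (ENSMUSG00000051910) chr7:115470872-116038796, both on the minus strand. They have 14376 and 14832 bases of exon, more than the 4312 of Sox13 (ENSMUSG00000070643, chr1:133382303-133424377, minus strand). Sox8 (ENSMUSG00000024176) lies at chr17:25565892-25570686 on the minus strand with 3118 bases of exon, Sox9 (ENSMUSG00000000567) at chr11:112782224-112787760 on the plus strand with 4135, and Sox10 (ENSMUSG00000033006) at chr15:79154908-79165240 on the minus strand with 3051. No exon of Sox6, Sox13, Sox9 or Sox10 overlapped another annotated gene.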

How the data were processed

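PolyA RNA of 33 libraries was sequenced by the submitters, 3 libraries at each of 11 labelled stages. The deposited table holds whole-number counts of reads per gene that were not normalized, with exonic gene sizes in a column of their own. Per the submitters' processing notes, cutadapt 1.9.1, HISAT2 2.0.1, HTSeq 0.6.1 and GRCm38 were used. The annotation release and the strand setting were not given in the sources used here. Of the 55401 gene identifiers, 55141 matched a symbol and 260 did not. Library totals ran from 14516518 to 19964404 counts. No 2 libraries were identical: the lowest chi-square per gene between replicates was 1.85.

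The members and gene lists were chosen with earlier results of these data known. The 20073 genes that passed filterByExpr were fitted in 1 model of stage over all 33 libraries (22 residual degrees of freedom) with edgeR 4.0.16 in R 4.3.3, TMM scaling, the quasi-likelihood test and Benjamini-Hochberg adjustment over all genes, with a threshold of 0.05. Standard errors are the log2 fold change divided by the root of F. CPM uses TMM-scaled totals, and levels were compared between genes only per kilobase of exon. The length trend was a lowess curve (span 0.3, R 4.3.3) of each library's log2 deviations on the log2 of exonic length. For a gene with 0 counts in a stage, fold bounds use a floor of 3 counts over that stage. All 6 members were named, with up to 4 passing genes of each list by size of change, those that went against the rest, and the 3 most alike genes with a stage mean of at least 5 CPM. A few genes that this rule names are not reported here. Of the genes on the 15 other lists, Col10a1, Gpr143, Myl2 and Sox15 failed the filter. Scripts were tested on simulated data. Alternatives were DESeq2 1.42.0, other scalings and filters, fewer libraries, removal of the length trend and leaving out each library. Replicate numbers and column letters were not tied to each other by the labels. Figures were drawn with matplotlib 3.10.9.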

Additional observations from a re-analysis of the deposited data

How the results depend on the processing

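Of 30 results of the 6 members (4 windows and the test of any change), 22 kept their direction and side of the threshold under every alternative, and so did 28 of 42 passing steps. Scaling by totals alone moved the median of all genes by 0.43 (log2) from E8.5 to E14.5 and the share of called genes that were higher from 55.0% to 71.3%, from 57.0% to 72.5% for E8.5 to E10.5, from 52.2% to 68.4% for E10.5 to E12.5 and from 46.9% to 58.4% for E12.5 to E14.5, and removing the length trend moved that for E8.5 to E10.5 to 40.4%. For E8.5 to E14.5, Sox5 (-0.33) was 0.10 by totals alone, -0.72 without the length trend, -0.32 with only the libraries compared and -0.32 without E11.5, E12 and E13.5, passing in the last 3. Sox8 (-0.022) was 0.039 with DESeq2 size factors, 0.41 by totals alone, 0.017 with no filter, 0.13 with a stricter filter and 0.038 with DESeq2, and -0.085 to 0.084 with 1 library left out. For E8.5 to E10.5, Sox5 was 0.13 without the length trend and 0.47 to 0.59 with 1 library left out. Sox13 (-0.26) passed with size factors (-0.31), the stricter filter (-0.27), the length trend removed (-0.43), DESeq2 (-0.31), only the libraries compared (-0.28) and without the 3 stages (-0.29). Sox8 (-0.38) passed with the same settings, at -0.44, -0.39, -0.53, -0.44, -0.41 and -0.42, and lay at -0.46 to -0.27 with 1 library left out. For E10.5 to E12.5, Sox8 (0.35) passed by totals alone (0.47), with only the libraries compared (0.38), without the 3 stages (0.35) and with E11.5 in place of E12.5 (0.97), where Sox9 was 0.042 and missed the threshold and 10967 genes were called rather than 7209. For E12.5 to E14.5, Sox8 (0.013) was -0.075 without the length trend, -0.61 with E11.5 in place of E12.5, and -0.038 to 0.092 with 1 library left out. Sox6 from E11.5 to E12 was 0.33 without the length trend. Only the libraries compared gave 7573 called genes for E8.5 to E9 (4052 in the fit over all stages), 7757 for E9 to E9.5 (4577), 8331 for E9.5 to E10 (5364), 5632 for E10 to E10.5 (1699) and 7720 for E11 to E11.5 (4613), and leaving out 1 library gave 1034 to 1326 for E10 to E10.5. The causes were not tested.

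With the replicate block on the column letter, 14895 genes were called for E8.5 to E14.5 (14974 without it), 9748 for E8.5 to E10.5, 7015 for E10.5 to E12.5 and 10628 for E12.5 to E14.5, and no call of a member changed in the windows or in the steps that passed. Libraries with the same letter did not deviate together (mean r of -0.008 over 165 pairs, 0.004 over 330 pairs of unlike letters), and 6 of 33 libraries correlated best with their own letter, so the block pairs nothing known. Depth limits Sox8, with 62 to 255 counts a library, and Sox10 at E10.5.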

Other observations

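The cartilage genes Matn1 and Acan were high at E11.5, low at E12 and high again at E13.5. Matn1 was at 0.0693 ± 0.060 CPM (SD, n = 3) at E11, 11.7 to 15.4 CPM in the 3 libraries of E11.5, 0.219 ± 0.15 CPM at E12 and 12.9 ± 3.3 CPM at E13.5. Acan was at 1.38 ± 0.15, 8.11 ± 0.52, 0.478 ± 0.34 and 10.6 ± 0.83 CPM at these stages. Both were highest at E14.5, at 75.0 ± 7.7 and 26.1 ± 1.4 CPM. Sox5 was highest at E11.5 and E13.5, at 88.6 ± 2.3 and 86.7 ± 26 CPM, but lowest at E14.5, at 19.6 ± 1.1 CPM, so the stages of Sox5 and of these genes matched only in part. Ibsp and Sp7, markers of bone-forming cells, were also higher at E11.5 than at E11, E12 and E12.5: Sp7 was at 1.08 ± 0.19 CPM at E11, 5.65 ± 0.55 CPM at E11.5, 1.44 ± 0.19 CPM at E12.5 and 12.9 ± 1.5 CPM at E13.5, and at E14.5 Sp7 reached 38.2 ± 2.8 and Ibsp 464 ± 14 CPM. Whether the tissue taken at these stages differed was not tested.

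Col2a1 was already at 530 ± 7.8 CPM at E9, when Ibsp had no count. Over the 11 stage means its r was 0.855 with Sox13 and -0.080 with Sox9. Acan had an r of -0.72 with Sox13 and -0.49 with Sox9. Col2a1 and Sox13 were high from E8.5 to E10.5 and lower from E11 on. Col2a1 was at 479 ± 7.9 CPM at E10.5 and 306 ± 10 CPM at E11.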
